A study of Mus musculus with 40 samples.

Results

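The insulin-like growth factor axis is described here through 10 of the 55487 genes in the table of counts. They are the ligand gene *Igf2*, the binding protein genes *Igfbp2*, *Igfbp3*, *Igfbp4* and *Igfbp5*, the receptor genes *Igf1r*, *Igf2r* and *Insr*, and the receptor substrate genes *Irs1* and *Irs2*. They were chosen by their role in the pathway and on measured values, since *Igfbp2*, *Igfbp5* and *Irs1* were known from earlier results on these counts to differ between the cell types. The contrast of the cell types is therefore given as a description, with no p-value and with nothing read from its calls. The comparisons of each stimulus with control reuse the control libraries of that contrast, so for these 3 genes they are not independent of the choice. A response that narrows the gap between the cell types and a control gap that came out large by chance cannot be told apart in them.

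IGF1 and IGF2 are secreted proteins that act through the receptor tyrosine kinase IGF1R and, with insulin, through the insulin receptor INSR, while IGF2R binds IGF2 and carries it to lysosomes. Secreted binding proteins hold the ligands outside the cell and prolong or block their action, and the docking proteins IRS1 and IRS2 link the activated receptors to phosphoinositide 3-kinase and AKT. In the nervous system the ligands favour the survival and neurite growth of motor neurons, and glial cells are one source of the binding proteins.

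Both cell types came from mouse embryonic stem (ES) cells derived from mice named B6.Cg-Tg(Hlxb9-GFP)1Tmj/J, in which the promoter of the motor neuron gene Hb9 drives enhanced green fluorescent protein. ES-astrocytes, expanded from the glial progenitors of these cultures, were treated in every group with forskolin, which activates adenylyl cyclase, to mature them, and some then received a stimulus for 24 h. Sorted ES-motor neurons were plated on top, and after co-culture the cell types were sorted again into samples of about 200 cells. The astrocyte medium was not taken off before this plating. The authors name a small risk that some stimulus remained, which they hold to be likely negligible. The stimuli were interleukin-1α with tumor necrosis factor-α (IL-1α and TNF-α), complement components C1Q with C5, interleukin-1β with interleukin-6 (IL-1β and IL-6), and transforming growth factor-β2 (TGF-β2). The astrocyte medium held fetal bovine serum and the supplement B27, which contains insulin, in all groups. With the control there were 5 treatments and 2 cell types, so 10 groups of 4 libraries each, named by the biological replicate letters A to D. The reporter marks motor neurons, and the gate used for the ES-astrocyte samples is not given in the sources used here.

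Polyadenylated RNA was sequenced and counted as reads per gene. Values are CPM, a library's counts of a gene scaled to its total count. Totals ran from 1510823 to 16054290 counts in the 20 ES-astrocyte libraries, with a median of 4670241.5, and from 6557 to 19717324 in the 20 ES-motor neuron libraries, with a median of 1213482. A count of 0 allows up to 3 counts, which is 0.187 to 1.99 CPM in ES-astrocytes and 0.152 to 458 CPM in ES-motor neurons, and such limits cover counting error only because no molecular identifiers are named. Of the libraries, 9 had totals under 20% of the overall median, all of them ES-motor neurons. They were all 4 with IL-1α and TNF-α, control C, C1Q and C5 A with 6557 counts, IL-1β and IL-6 B and D, and TGF-β2 A. The control and the IL-1α and TNF-α libraries carried plate index 1, and the other 3 stimuli plate index 2, so for those 3 the plate and the stimulus cannot be told apart.

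The cell type labels were compared with marker genes. The 9 motor neuron markers summed to 73.5 to 446 CPM in ES-astrocytes (median 218, *Lhx4* the most abundant) and to 822 to 7116 CPM in ES-motor neurons (median 1241, *Mnx1*, which encodes Hb9, the most abundant). The 12 astrocyte markers summed to 824 to 2548 CPM in ES-astrocytes (median 1574) and to 126 to 653 CPM in ES-motor neurons (median 328). *Fabp7*, shared with radial glia, gave most of the ES-astrocyte sum with a median of 1261 CPM, and the mature markers *Gfap*, *Aqp4* and *Aldh1l1* had a count of 0 in all 20 ES-astrocyte libraries. In the ES-motor neuron libraries *Sox9* was the most abundant of the list, and *Aqp4* and *Aldh1l1* were at 0. The 11 general neuron markers were present in both sorts, at 2289 to 5292 CPM in ES-astrocytes (median 3073) and 6908 to 10999.7 CPM in ES-motor neurons (median 9327), with *Stmn2* the most abundant in both. The ES-astrocyte libraries thus held neuronal transcripts and had no counts of 3 of the 12 astrocyte markers, though the list summed higher in each of them than in any ES-motor neuron library. These counts are of RNA and do not measure protein. A level in either sort is that of the sorted sample.

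Other marker lists set what else the sorts could hold. The 8 neural progenitor markers summed to a median of 1085 CPM in ES-astrocytes (710.3 to 1729, *Vim* the most abundant) and 464 CPM in ES-motor neurons (153 to 677). The 12 fibroblast and mesenchyme markers summed to 189 to 1666 CPM in ES-astrocytes (median 636, *Acta2* the most abundant, *Postn* at 0) and 0 to 153 CPM in ES-motor neurons (median 1.78, with *Lum*, *Col1a2* and *Postn* at 0). The value of 153 CPM equals 1 count in C1Q and C5 A, and the other ES-motor neuron groups reached at most 24.9 CPM. Endothelial, oligodendrocyte lineage, microglial and pluripotent markers were scarce. The highest sums in ES-astrocytes were 15.9 CPM for the 6 endothelial genes (*Cdh5*, *Tek* and *Flt1* at 0), 55.7 for the 8 oligodendrocyte lineage genes (*Sox10* at 0), 18.4 for the 8 microglial genes (*Aif1*, *P2ry12*, *C1qa* and *Ptprc* at 0) and 5.45 for the 6 pluripotency genes (*Pou5f1* at 0). In ES-motor neurons the highest sums were 0 CPM for the endothelial, 49.8 for the oligodendrocyte lineage, 18.9 for the microglial and 0.1396 for the pluripotency genes. The 16 cytokine response genes, *Stat3* the most abundant, summed in ES-astrocytes to 69.6 ± 33.7 CPM (SD, n = 4) in control, 282 ± 169.9 with IL-1α and TNF-α, 125 ± 24.2 with C1Q and C5, 147 ± 128 with IL-1β and IL-6 and 99.5 ± 32.5 with TGF-β2.

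The first comparison asks where each member of the axis is expressed. The binding protein genes were higher in ES-astrocytes, *Irs1* was higher in ES-motor neurons, and *Igf1r* lay at like levels in both. Per kilobase of transcript, the scale on which genes can be set beside each other, the median levels in ES-astrocytes were 20.0 CPM per kb for *Igfbp2*, 12.6 for *Igfbp5*, 11.8 for *Igf1r*, 8.25 for *Igf2r*, 4.75 for *Igfbp4*, 3.54 for *Irs1*, 2.06 for *Igfbp3*, 0.827 for *Insr*, 0.431 for *Irs2* and 0 for *Igf2*. In ES-motor neurons the medians were 10.3 CPM per kb for *Irs1*, 10.04 for *Igf1r*, 5.27 for *Igf2r*, 2.05 for *Insr*, 0.614 for *Igfbp2* and 0.521 for *Igfbp5*, and *Igfbp3*, *Igfbp4*, *Igf2* and *Irs2* had a median of 0. *Igfbp2* and *Igfbp5*, first and second in ES-astrocytes on this scale, thus stood below all 3 receptors in ES-motor neurons. The place of *Irs1* in this order rests on reads that cannot be told apart from those of the gene *Gm9747*, described below, without whose counts its median in ES-motor neurons was 9.14 CPM against 94.5. Fewer cells of a type in a sample and less RNA per cell cannot be told apart in any of these values.

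**Figure D1:**
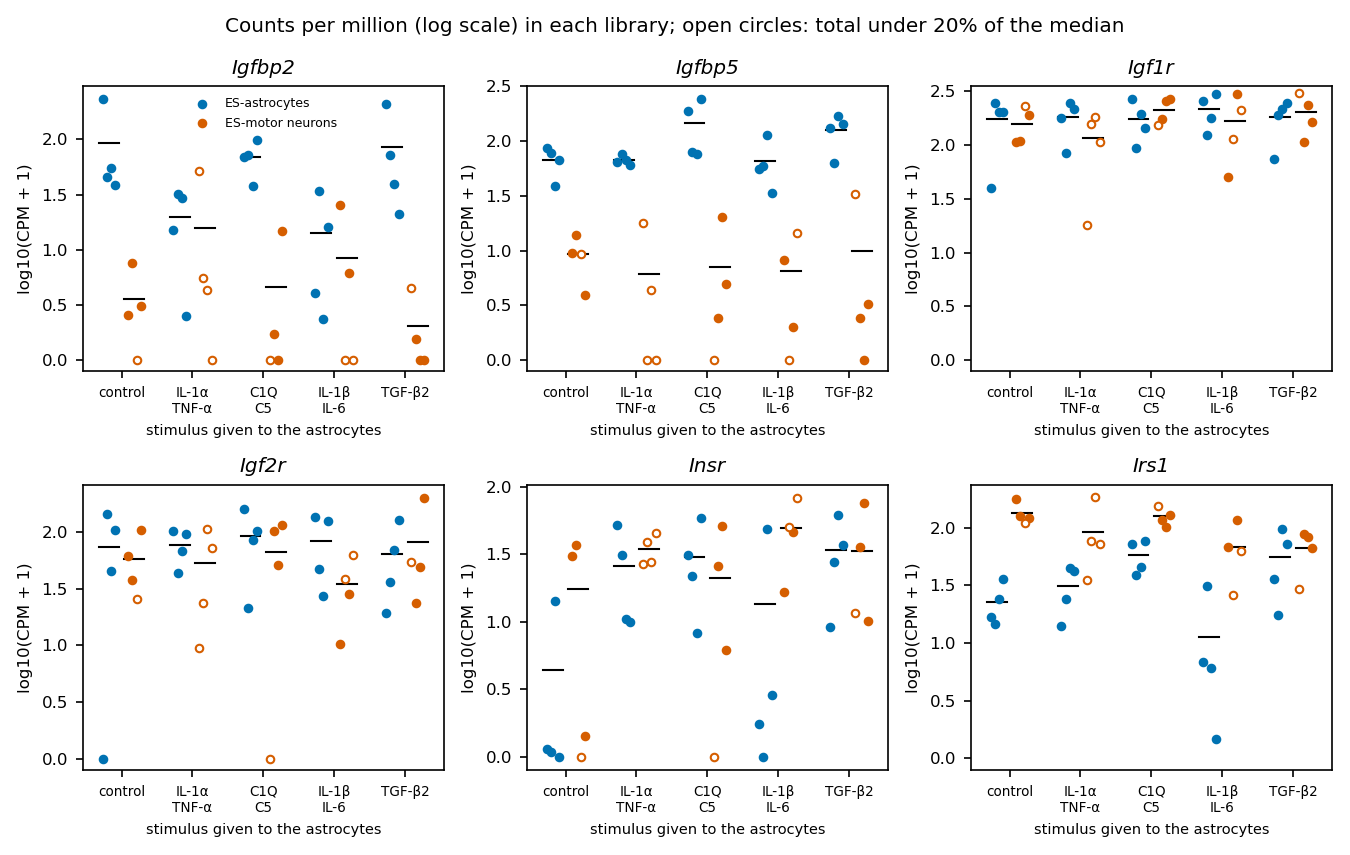
Level of 6 genes in each of the 40 libraries, as log10(CPM + 1) on the vertical axis, by stimulus given to the astrocytes and by cell type; each point is 1 library, open circles are libraries with totals under 20% of the median, and bars are the log10 of the group's mean CPM plus 1. *Igfbp2* and *Igfbp5* sit higher in ES-astrocytes, *Irs1* sits higher in ES-motor neurons, and the libraries of 1 group spread widely.

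Among the ligands, *Igf2* encodes the fetal growth factor that is imprinted in the mouse. Its 290 counts fell in 6 ES-astrocyte libraries, with 178 in control B (13.3 CPM), 102 in C1Q and C5 B (10.04 CPM), 5 in C1Q and C5 D, 3 in IL-1β and IL-6 B, and 1 each in TGF-β2 A and C. The 20 ES-motor neuron libraries had 0 counts. The annotated gene *Gm49394* overlaps *Igf2* on the same strand and held 274 counts in the same 6 libraries, which may include the same reads. *Igf2* did not pass the filter on low counts in any comparison. The other ligands came from a list of 20 further genes of the IGF system, of which *Ins1*, *Ins2*, *Igfbp1* and *Igfbp6* had no count in the 40 libraries. *Igf1*, the other growth factor of the pair, had 1128 counts in 12 ES-astrocyte libraries and 77 in 4 ES-motor neuron libraries.

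*Igfbp2* encodes a binding protein of the fetal brain and of glial cells. In control ES-astrocytes its level was 231, 44.8, 54.1 and 37.6 CPM in libraries A to D, and in control ES-motor neurons 1.56, 6.64, 0 and 2.10 CPM. The 2 groups do not overlap, and library A stands above the other 3 of its group. The fitted log2 fold change, positive where ES-motor neurons are higher, was −4.64 (SE 0.86, n = 4 and 4). Over all 5 treatments the range was 1.37 to 231 CPM in ES-astrocytes (median 37.0) and 0 to 51.1 CPM in ES-motor neurons (median 1.13), with a log2 fold change of −3.08 (SE 0.67, n = 20 and 20). Here the ranges overlap, and the highest ES-motor neuron value, 51.1 CPM in IL-1α and TNF-α A, came from a library of low total. Fits over the 5 treatments took the 20 libraries of a cell type as independent, though these carry only the letters A to D. Whether libraries of 1 letter share cells of the same origin was not tested, so n counts libraries and the SE may be too small.

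*Igfbp5* encodes a binding protein that also attaches to extracellular matrix. It stood at 85.7, 76.4, 37.6 and 67.0 CPM in control ES-astrocytes A to D and at 8.59, 13.03, 8.30 and 2.94 CPM in control ES-motor neurons. Every ES-astrocyte control was above every ES-motor neuron control, and the log2 fold change was −2.99 (SE 0.65, n = 4 and 4). Over the 5 treatments all 20 ES-astrocyte libraries, from 32.7 to 242 CPM (median 75.8), lay above all 20 ES-motor neuron libraries, from 0 to 31.8 CPM (median 3.13), with a log2 fold change of −3.82 (SE 0.41). The measured levels were thus separate in all 40 libraries, though counts of 0 allow up to 458 CPM in C1Q and C5 A, the ES-motor neuron library of lowest total, and up to 37.4 CPM in IL-1β and IL-6 B.

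*Igfbp4*, whose protein holds IGFs away from their receptor until a protease cleaves it, stood at 87.2, 24.4, 17.9 and 9.12 CPM in control ES-astrocytes and had counts in 7 of the 20 ES-motor neuron libraries, at most 17.04 CPM. *Igfbp3*, the main IGF carrier of serum, ranged from 0 to 29.1 CPM in ES-astrocytes with 860 counts in all, against 4 counts in all ES-motor neuron libraries, of which 1 lay in IL-1α and TNF-α C and 3 in IL-1β and IL-6 C. For the control contrast *Igfbp5*, with a log2 fold change of −2.99 (SE 0.65), is the called member nearest to the threshold, and *Igfbp4*, with −3.73 (SE 1.28), is the nearest that edgeR did not call. All 4 binding protein genes of the group were lower in ES-motor neurons over the 5 treatments, with log2 fold changes of −5.90 (SE 0.96) for *Igfbp3* and −3.12 (SE 0.67) for *Igfbp4* beside the values of *Igfbp2* and *Igfbp5*. Lower levels in ES-motor neurons were also the more frequent direction over all genes, with 1461 of the 1972 called in that contrast. The spread of *Igfbp4* over the control libraries was wider than that of *Igfbp5*.

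The receptors showed no such division. *Igf1r*, the main signalling receptor for both IGFs, stood at 39.3, 243, 204 and 204 CPM in control ES-astrocytes A to D and at 106, 108, 228 and 188 CPM in control ES-motor neurons. The 2 sets overlap, and ES-astrocyte library A is the lowest of the 8. The log2 fold change was −0.18 (SE 0.57) in the controls and −0.09 (SE 0.26) over the 5 treatments. *Igf2r*, the clearance receptor of IGF2, was at 0, 145, 44.2 and 104 CPM in control ES-astrocytes and at 60.9, 36.6, 24.9 and 104 CPM in control ES-motor neurons, with log2 fold changes of −0.39 (SE 1.19) and, over the 5 treatments, −0.37 (SE 0.43). *Insr*, the insulin receptor, was at 0.127, 0.0747, 13.3 and 0 CPM in control ES-astrocytes and at 29.7, 36.1, 0 and 0.420 CPM in control ES-motor neurons. Single libraries of both groups lay near 0 and others well above it, and over the 5 treatments the log2 fold change of *Insr* was 0.91 (SE 0.60).

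*Irs1*, the docking protein that couples IGF1R and INSR to phosphoinositide 3-kinase, had the opposite pattern to the binding proteins. It stood at 15.8, 13.7, 23.2 and 34.6 CPM in control ES-astrocytes A to D and at 177, 126, 108 and 121 CPM in control ES-motor neurons. The groups do not overlap, and the log2 fold change was 2.65 (SE 0.49, n = 4 and 4). Over the 5 treatments the range was 0.467 to 96.1 CPM in ES-astrocytes (median 32.3) and 24.9 to 183 CPM in ES-motor neurons (median 94.5), with a log2 fold change of 1.74 (SE 0.32). The ranges overlap there. *Irs2*, the second substrate, had counts in 12 of 20 ES-astrocyte and 8 of 20 ES-motor neuron libraries, at most 69.2 and 34.1 CPM, with a log2 fold change of −1.51 (SE 0.93).

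In the contrast of the control libraries 6 of the 10 members passed the filter, and 3 of them, *Igfbp2*, *Igfbp5* and *Irs1*, were called by edgeR, where 2.24% of all 10199 genes were called. Over the 5 treatments 9 passed and 5 were called, the 4 binding proteins and *Irs1*, where 14.9% of 13227 genes were called. Nothing is read from these counts, since the members were chosen with the contrast known. The count of 3 was 4 by DESeq2, 0 with the replicate block and between 0 and 3 when each library was left out, with 0 without ES-motor neuron control A or D and 1 without ES-astrocyte control B or ES-motor neuron control B or C.

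*Igfbp2* and *Igfbp5* are neighbours on chromosome 1 (GRCm38), *Igfbp2* (ENSMUSG00000039323) at 72824503 to 72852474 on the plus strand and *Igfbp5* (ENSMUSG00000026185) at 72857932 to 72874884 on the minus strand. They face each other tail to tail with 5457 bases between them. *Irs1* (ENSMUSG00000055980) lies on the minus strand of the same chromosome at 82233101 to 82291416. The others are *Igfbp3* (ENSMUSG00000020427) and *Igfbp4* (ENSMUSG00000017493) on chromosome 11, *Igf2* (ENSMUSG00000048583) and *Igf1r* (ENSMUSG00000005533) on chromosome 7, *Insr* (ENSMUSG00000005534) and *Irs2* (ENSMUSG00000038894) on chromosome 8, and *Igf2r* (ENSMUSG00000023830) on chromosome 17.

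**Figure D2:**
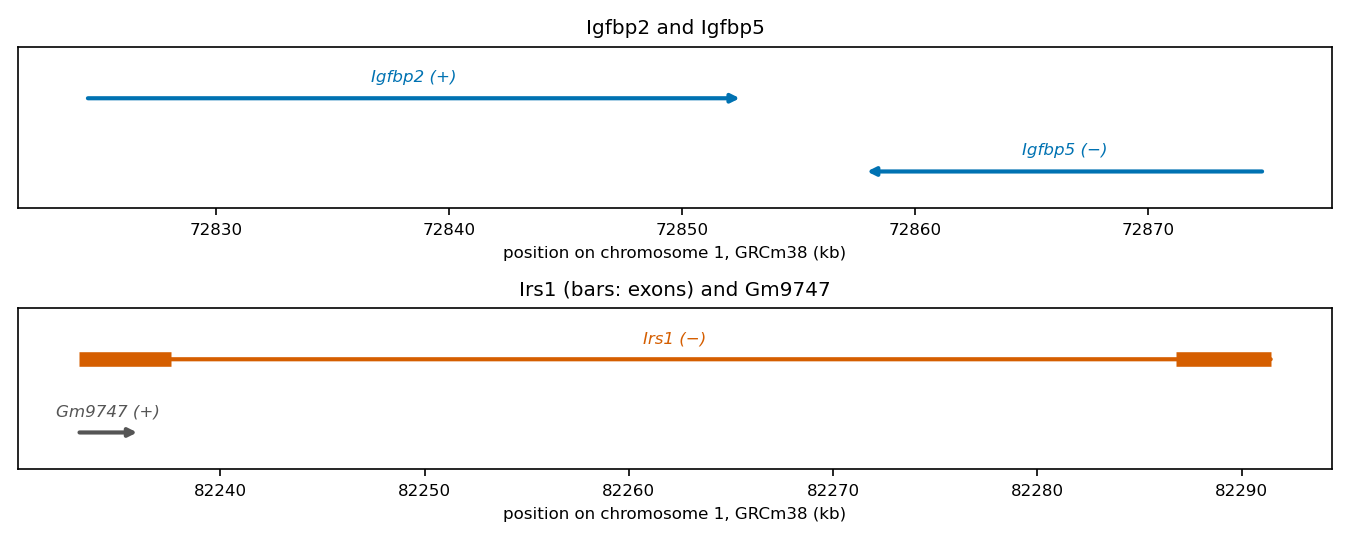
Positions of *Igfbp2* and *Igfbp5* and of *Irs1* and *Gm9747* along chromosome 1 of GRCm38, in kb, with the strand of each gene. *Igfbp2* and *Igfbp5* point toward each other, and *Gm9747* lies inside the last exon of *Irs1* on the other strand.

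A second annotated gene bears on the counts of *Irs1*. *Gm9747* (ENSMUSG00000022591) spans 82233112 to 82235933 on the plus strand, within exon 2 of *Irs1* (82233101 to 82237604). Its counts came to 88.9% of those of *Irs1* within ES-astrocytes and 89.7% within ES-motor neurons and exceeded them in 0 of the 40 libraries. How reads were assigned to strands and to overlapping genes is not given in the sources used here, so that the reads of the 2 genes cannot be told apart. With the *Gm9747* counts taken from those of *Irs1*, the control libraries held 0.702 to 6.36 CPM in ES-astrocytes and 7.55 to 27.3 CPM in ES-motor neurons. These control remainders do not overlap, but they rest on few counts. In ES-motor neuron control C the remainder was 8.30 CPM, from 26 counts less 24, under that library's limit of 12.5 CPM for a count of 0. The log2 fold change of the control remainders was 2.48 (SE 1.22), against 2.65 with the counts of both genes added. Over all 40 libraries the remainders overlap, at 0 to 9.01 CPM in ES-astrocytes and 0 to 27.3 CPM in ES-motor neurons.

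The genes nearest in pattern were found from the group means of log2(CPM + 1), each centred on its own mean, over 9 groups and 31 libraries of at least 20% of the median total, among 13211 genes. The nearest to *Igfbp2* were *Fbln1*, an extracellular matrix glycoprotein gene, at a root mean square difference of 0.636, *Dtl* at 0.686 and *Rpa2*, a replication protein gene, at 0.746. For *Igfbp5* they were *Tmem47* at 0.368, *LTO1* at 0.473 and the receptor gene *Notch1* at 0.476. *Irs1* lay nearest to *Gm9747* at 0.134, which is the overlap described above, and then to *Ptpn4*, a phosphatase gene, at 0.418 and *Nfasc*, a gene of axonal adhesion, at 0.421. *Igfbp5* thus had closer neighbours than *Igfbp2* had.

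Promoter windows of the genes that set the pattern are shown, since *Igfbp2* and *Igfbp5* lie side by side and were both higher in ES-astrocytes, while *Irs1* was higher in ES-motor neurons. RefSeq (build GRCm38.p6) gave windows from 250 bases before to 50 after a start for 9 of the 10 members, all but *Insr*. Capitals mark the GC box GGGCGG on either strand, which 35.7% of 32851 promoters of this length hold. The other motifs searched on both strands were the cyclic AMP response element TGACGTCA (1.79% of promoters), looked for because forskolin raises cyclic AMP, the forkhead core GTAAACA (3.65%), looked for because FOXO factors act in this pathway, and the TATA box TATAAA (13.6%), and none of them occurs in the 3 windows printed. Among all members' windows the TATA box was found only for *Igfbp4*. The first *Igfbp2* window, chr1:72824230-72824529 on the plus strand, holds 3 GC boxes at 67.0% G and C; a second start of the gene, at chr1:72825137-72825436, holds none. The *Igfbp5* window, chr1:72874816-72875115 on the minus strand, holds no GC box at 56.3%, and the *Irs1* window, chr1:82291390-82291689 on the minus strand, holds 2 at 71.3%, beside a median of 52.7% over all promoters. A match is a description of letters and not evidence of a factor bound.
Igfbp2: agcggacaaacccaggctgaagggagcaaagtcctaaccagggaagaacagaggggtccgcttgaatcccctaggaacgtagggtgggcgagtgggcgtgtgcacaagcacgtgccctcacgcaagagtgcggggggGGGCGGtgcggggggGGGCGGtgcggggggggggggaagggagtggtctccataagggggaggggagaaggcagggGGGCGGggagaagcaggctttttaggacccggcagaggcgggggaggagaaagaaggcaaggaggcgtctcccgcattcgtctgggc
Igfbp5: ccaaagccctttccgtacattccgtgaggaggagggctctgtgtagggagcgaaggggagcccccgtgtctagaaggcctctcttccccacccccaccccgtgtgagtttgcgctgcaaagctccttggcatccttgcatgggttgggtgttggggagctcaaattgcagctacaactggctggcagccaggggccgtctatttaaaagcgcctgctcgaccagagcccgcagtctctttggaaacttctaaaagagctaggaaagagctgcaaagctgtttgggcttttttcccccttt
Irs1: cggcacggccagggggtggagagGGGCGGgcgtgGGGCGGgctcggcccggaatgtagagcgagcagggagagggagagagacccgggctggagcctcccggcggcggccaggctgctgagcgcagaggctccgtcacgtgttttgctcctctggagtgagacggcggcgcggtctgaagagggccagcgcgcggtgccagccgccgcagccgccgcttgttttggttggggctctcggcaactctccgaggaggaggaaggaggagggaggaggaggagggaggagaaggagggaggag

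The next comparisons ask whether the stimuli given to ES-astrocytes changed the axis in those cells. Each gene was tested with edgeR's quasi-likelihood test, p-values were adjusted by the Benjamini-Hochberg method over all genes tested, and a gene was called with an adjusted p no higher than 0.05 and a log2 fold change beyond 1 in either direction. No member was called with any of the 4 stimuli, which share the same 4 control libraries. *Igfbp2* had the lowest levels with the stimuli that contain interleukin-1. It stood at 14.02, 30.8, 28.2 and 1.49 CPM with IL-1α and TNF-α and at 3.01, 32.9, 1.37 and 14.9 CPM with IL-1β and IL-6. All 8 of these values lay below all 4 control values, the lowest of which was 37.6 CPM. With C1Q and C5 it stood at 68.1, 70.5, 36.4 and 98.1 CPM and with TGF-β2 at 209, 70.7, 38.7 and 20.0 CPM, both overlapping the control. By mean level the ES-astrocyte groups ran from control (91.8 ± 93.0 CPM, SD, n = 4) through TGF-β2 (84.6 ± 85.6), C1Q and C5 (68.3 ± 25.2) and IL-1α and TNF-α (18.6 ± 13.6) to IL-1β and IL-6 (13.1 ± 14.6). In that order only C1Q and C5 and IL-1α and TNF-α were neighbours whose libraries did not overlap.

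The log2 fold change of *Igfbp2* with IL-1α and TNF-α was −2.26 (SE 0.84, lower in 4 of 4 libraries; edgeR, Benjamini-Hochberg adjusted p = 1.00). With IL-1β and IL-6 it was −2.70 (SE 0.96, lower in 4 of 4; edgeR, Benjamini-Hochberg adjusted p = 1.00). Neither passed the threshold after adjustment over all genes. Leaving out each library in turn gave −2.54 to −1.46 and −3.59 to −1.92. With C1Q and C5 the log2 fold change was −0.43 (SE 0.58) and with TGF-β2 −0.10 (SE 0.72), and both turned positive, at 0.35 and 0.65, without control A, the library at 231 CPM. The summed fibroblast and mesenchyme markers, *Acta2* the most abundant, stood at 949.8 ± 546 CPM (SD, n = 4) in control, where control A was the highest of the 20 at 1666. They stood at 436 ± 277 with IL-1α and TNF-α, 541 ± 143 with C1Q and C5, 407 ± 207 with IL-1β and IL-6 and 1028 ± 259 with TGF-β2. Median log2 fold changes of the markers tested were −1.11 (6), −0.79 (6), −0.94 (4) and 0.05 (6) in the same order. The mean sum was thus below the control with C1Q and C5 also, where *Igfbp2* overlapped the control. The part of these markers in the levels of *Igfbp2* was not tested.

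*Igfbp5* and *Irs1* had their highest levels in ES-astrocytes with the other 2 stimuli. *Igfbp5* was at 186, 78.6, 75.5 and 242 CPM with C1Q and C5 and at 130.1, 61.6, 169 and 142 CPM with TGF-β2, against 37.6 to 85.7 CPM in control. Every control was exceeded by 2 of 4 libraries with C1Q and C5 and by 3 of 4 with TGF-β2. The log2 fold changes were 1.00 (SE 0.50; edgeR, Benjamini-Hochberg adjusted p = 1.00) and 0.89 (SE 0.45; adjusted p = 1.00). With IL-1α and TNF-α it was at 63.0, 76.1, 65.7 and 59.4 CPM and with IL-1β and IL-6 at 54.8, 58.8, 114 and 32.7 CPM, overlapping the control, with log2 fold changes of −0.05 (SE 0.40) and 0.11 (SE 0.52). By mean level its order was C1Q and C5 (145 ± 82.2 CPM, SD, n = 4), TGF-β2 (126 ± 45.6), control (66.7 ± 20.8), IL-1α and TNF-α (66.1 ± 7.18) and IL-1β and IL-6 (65.0 ± 34.4), with overlap between all neighbours. The summed astrocyte markers were at 1897 ± 719 CPM with C1Q and C5, 1362 ± 146 with TGF-β2 and 1987 ± 783 in control. Their median log2 fold changes were 0.02 and −0.79 (7 tested), and DESeq2 called 1 of them with TGF-β2. The fibroblast and mesenchyme markers had medians of −0.79 with C1Q and C5 and 0.05 with TGF-β2 (6 tested). The part of these markers in the level of *Igfbp5* was not tested.

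*Irs1* in ES-astrocytes was at 71.7, 38.1, 44.3 and 75.5 CPM with C1Q and C5, each above the 4 controls (13.7 to 34.6 CPM). It was at 34.6, 16.5, 96.1 and 71.4 CPM with TGF-β2, at 13.01, 23.3, 44.1 and 41.1 CPM with IL-1α and TNF-α, and at 5.84, 30.1, 5.11 and 0.467 CPM with IL-1β and IL-6. Those 3 groups overlap the control. The log2 fold change was 1.27 (SE 0.63, higher in 4 of 4 libraries; edgeR, Benjamini-Hochberg adjusted p = 1.00) with C1Q and C5 and 1.30 (SE 0.70; adjusted p = 1.00) with TGF-β2. With IL-1α and TNF-α it was 0.42 (SE 0.70) and with IL-1β and IL-6 −1.09 (SE 1.19). With the *Gm9747* counts taken off, the values with C1Q and C5 and with TGF-β2 were 0.00 (SE 2.03) and 0.57 (SE 1.28). Its mean level ran from 57.4 ± 18.9 CPM (SD, n = 4) with C1Q and C5 and 54.7 ± 35.9 with TGF-β2 through 30.4 ± 14.8 with IL-1α and TNF-α and 21.8 ± 9.47 in control to 10.4 ± 13.4 with IL-1β and IL-6, and every pair of neighbours overlapped. The summed motor neuron markers, *Lhx4* the most abundant, were at 342 ± 80.4 CPM with C1Q and C5, 137 ± 50.8 with TGF-β2 and 225 ± 93.5 in control, and the general neuron markers at 3572 ± 1150.1, 2994 ± 690.2 and 2768 ± 233. The median log2 fold change of the markers tested was 0.01 (5 motor neuron genes) and 0.12 (11 neuron genes) with C1Q and C5, and −0.76 (5) and 0.04 (11) with TGF-β2. Their part in the level of *Irs1* was not tested.

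The groups of ES-astrocytes overlapped the control for all 3 receptors. Mean *Igf1r* lay between 172 ± 90.7 CPM (SD, n = 4) in control and 215 ± 79.2 with IL-1β and IL-6, and mean *Igf2r* between 62.4 ± 47.9 with TGF-β2 and 91.3 ± 56.5 with C1Q and C5. *Insr*, near 0 in 3 of 4 controls, was at 50.8, 30.4, 9.39 and 8.91 CPM with IL-1α and TNF-α, at 30.1, 21.0, 7.28 and 57.7 CPM with C1Q and C5, at 0.753, 0, 47.9 and 1.87 CPM with IL-1β and IL-6, and at 8.16, 26.9, 61.0 and 36.3 CPM with TGF-β2. All 4 libraries of each group but the one with IL-1β and IL-6 exceeded the 3 low controls, and control C at 13.3 CPM overlapped each group. The log2 fold changes were 2.91 (SE 1.85), 2.96 (SE 1.82) and 3.32 (SE 1.79) with IL-1α and TNF-α, C1Q and C5, and TGF-β2, each with an edgeR Benjamini-Hochberg adjusted p of 1.00, and *Insr* did not pass the filter with IL-1β and IL-6. Leaving out each library in turn gave 2.12 to 8.18, 2.53 to 8.23 and 2.85 to 8.60, each of the upper values without control C.

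Of the remaining members, *Igfbp3* had mean levels in ES-astrocytes between 3.603 ± 2.73 CPM (SD, n = 4) with C1Q and C5 and 12.5 ± 6.61 with IL-1α and TNF-α. *Igfbp4* lay between 20.0 ± 16.6 CPM with IL-1β and IL-6 and 51.2 ± 60.8 with C1Q and C5, and *Irs2* between 0.169 ± 0.337 CPM with IL-1α and TNF-α and 24.3 ± 31.1 with C1Q and C5. Neighbouring groups overlapped for all 3 genes. The library C1Q and C5 D was the highest of its group for *Igfbp2*, *Igfbp4* (139 CPM), *Igfbp5*, *Insr*, *Irs1* and *Irs2* (69.2 CPM).

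The counts in ES-astrocytes, all by edgeR, were as follows. With IL-1α and TNF-α 0 of 8 members tested were called, beside 0.0% of 10444 genes; 1 member, *Igfbp2*, and 93 genes in all had an unadjusted p under 0.05, and DESeq2 called 0 members and 21 genes. For C1Q and C5 it was 0 of 9 members, beside 0.0% of 10865 genes, with 0 members and 106 genes at an unadjusted p under 0.05 and 0 members and 37 genes called by DESeq2. IL-1β and IL-6 gave 0 of 8 members, beside 0.0% of 10240 genes, with *Igfbp2* and 119 genes in all under 0.05 and 0 members and 59 genes called by DESeq2. TGF-β2 gave 0 of 9 members, beside 0.0% of 10794 genes, with 0 members and 136 genes under 0.05 and 0 members and 58 genes by DESeq2. A p that misses the threshold does not show that levels were equal.

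**Figure D3:**
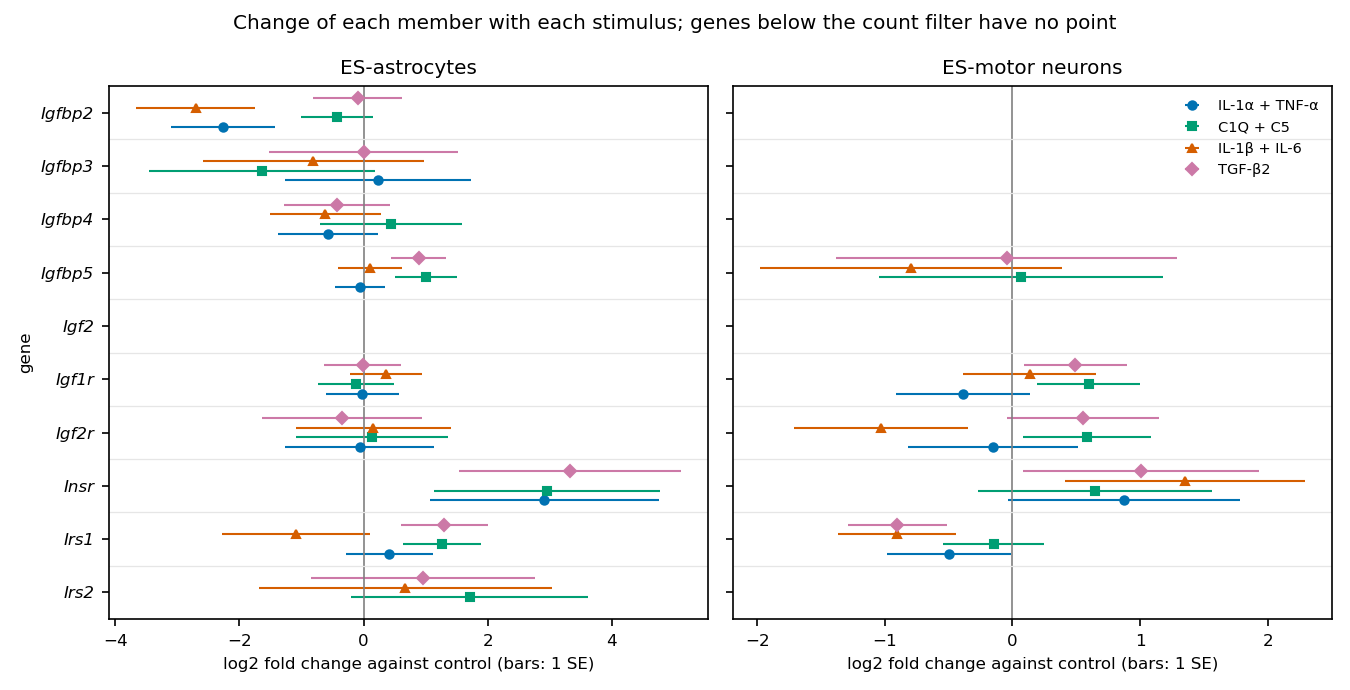
Fitted log2 fold change of each member against control, with bars of ±1 SE, for the 4 stimuli, ES-astrocytes at the left and ES-motor neurons at the right on an axis of smaller range, from 4 libraries per group; a gene below the filter on low counts has no point. *Igfbp2* lies at −2.26 and −2.70 with the interleukin-1 stimuli in ES-astrocytes, *Irs1* lies below 0 with all 4 in ES-motor neurons, and no value passed the test after adjustment.

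In ES-motor neurons the question is whether neurons placed on stimulated ES-astrocytes differed from those placed on control ones. *Irs1* was at 34.1, 76.3, 183 and 70.9 CPM with IL-1α and TNF-α, at 153, 116, 101 and 128 CPM with C1Q and C5, at 66.6, 24.9, 115 and 61.3 CPM with IL-1β and IL-6, and at 28.2, 87.8, 82.6 and 65.7 CPM with TGF-β2. Several of these values rest on few counts of *Irs1*, with 1 in C1Q and C5 A, 2 and 9 in IL-1β and IL-6 B and D, 4 and 8 in IL-1α and TNF-α A and D, and 8 in TGF-β2 A, so the group means and their order are loose. The 4 TGF-β2 libraries lay below all 4 controls (108 to 177 CPM), 3 of 4 did so with IL-1α and TNF-α and with IL-1β and IL-6, and the C1Q and C5 group overlapped the control. The log2 fold change with TGF-β2 was −0.90 (SE 0.39, lower in 4 of 4 libraries; edgeR, Benjamini-Hochberg adjusted p = 0.999) and did not pass the threshold. Leaving out each library in turn gave −1.03 to −0.69. Less the *Gm9747* counts it was −0.90 (SE 0.90). The log2 fold change of *Irs1* was −0.91 (SE 0.46; edgeR, Benjamini-Hochberg adjusted p = 1.00) with IL-1β and IL-6, −0.50 (SE 0.49) with IL-1α and TNF-α and −0.15 (SE 0.39) with C1Q and C5. By mean level *Irs1* ran from control (133 ± 30.5 CPM, SD, n = 4) and C1Q and C5 (124 ± 21.7) through IL-1α and TNF-α (91.1 ± 64.1) to IL-1β and IL-6 (66.8 ± 36.8) and TGF-β2 (66.1 ± 26.9), with overlap between neighbours. The summed neural progenitor markers, *Vim* the most abundant, also lay lower with TGF-β2, at 312 to 378 CPM against 457.5 to 677 in control, though the 2 of them tested had a median log2 fold change of 0.91, and the motor neuron markers had means of 1281 ± 600.2 and 1846 ± 605 CPM. With IL-1β and IL-6, where *Irs1* was about as low, the means were 549.6 ± 109 CPM for the progenitor markers, against 527 ± 103 in control, and 1925 ± 1442 CPM for the motor neuron markers. Their part in the level of *Irs1* was not tested.

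The receptors in ES-motor neurons varied as much within groups as between them. *Igf1r* had mean levels between 115 ± 72.7 CPM (SD, n = 4) with IL-1α and TNF-α and 213 ± 59.3 with C1Q and C5, with 158 ± 60.6 in control. *Igf2r* lay between 33.8 ± 21.7 CPM with IL-1β and IL-6 and 80.7 ± 79.8 with TGF-β2, and *Insr* between 16.5 ± 19.03 CPM in control and 48.1 ± 27.1 with IL-1β and IL-6. The fitted log2 fold change of *Insr* was positive with each stimulus, at 0.87, 0.65, 1.35 and 1.01 in the order IL-1α and TNF-α, C1Q and C5, IL-1β and IL-6, TGF-β2, and all of these comparisons share 1 control group with 2 libraries near 0.

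The binding proteins were scarce in most ES-motor neuron libraries with every stimulus. *Igfbp5* had means between 5.09 ± 8.12 CPM (SD, n = 4) with IL-1α and TNF-α and 8.87 ± 15.3 with TGF-β2, the latter set by library A at 31.8 CPM. *Igfbp2* had means from 1.02 ± 1.69 CPM with TGF-β2 to 14.7 ± 24.3 with IL-1α and TNF-α. In that last group the libraries stood at 51.1, 4.49, 3.33 and 0 CPM, so that 1 library of low total held most of the level. With IL-1β and IL-6, library A, with a total of 14329617 counts, held 24.2 CPM of *Igfbp2*. That lies within the 1.37 to 32.9 CPM of ES-astrocytes with that stimulus. *Igfbp2*, *Igfbp3*, *Igfbp4*, *Igf2* and *Irs2* did not pass the filter in the ES-motor neuron comparisons, nor did *Igfbp5* with IL-1α and TNF-α.

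By edgeR, 0 of 4 members tested were called with IL-1α and TNF-α, beside 0.0% of 4479 genes, with 0 members and 143 genes at an unadjusted p under 0.05 and 0 members and 1 gene called by DESeq2. With C1Q and C5 it was 0 of 5 members, beside 0.0% of 7348 genes, with 0 members and 322 genes under 0.05 and 0 of either by DESeq2. IL-1β and IL-6 gave 0 of 5 members, beside 0.0% of 8327 genes, with 0 members and 98 genes under 0.05 and 0 members and 1 gene by DESeq2. TGF-β2 gave 0 of 5 members, beside 0.0126% of 7947 genes, with *Irs1* and 221 genes in all under 0.05 and 0 members and 19 genes by DESeq2. The 1 gene called there, *Hoxa5*, is not of the axis.

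Whether a stimulus acted differently in the 2 cell types was tested by the interaction, which is positive where the response was the more positive in ES-motor neurons. It equals the gap between the cell types with the stimulus less the gap in control, and so contains the contrast known when *Igfbp2*, *Igfbp5* and *Irs1* were chosen. Their interactions are therefore given as a description with no p. For *Irs1* the TGF-β2 responses had opposite signs, 1.30 for ES-astrocytes and −0.90 for ES-motor neurons. The interaction was −2.20 (SE 0.76), beside a control gap of 2.65, and −2.59 to −1.80 when each library was left out in turn. With C1Q and C5 the interaction of *Irs1* was −1.53 (SE 0.64). Without the *Gm9747* counts the 2 values were −1.48 (SE 1.65) and −0.35 (SE 1.97), so that the remainder alone, with few counts, left both within about 1 SE of 0. With all its counts, the interaction of *Irs1* was −1.05 (SE 0.78) with IL-1α and TNF-α and 0.14 (SE 1.00) with IL-1β and IL-6.

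For *Igfbp2* the interaction was 3.83 (SE 1.43) with IL-1α and TNF-α and 4.14 (SE 1.47) with IL-1β and IL-6, beside a control gap of −4.64. Leaving out each library gave 2.22 to 4.81 and 2.89 to 5.14. The ES-motor neuron side of these values rests on few libraries, 51.1 CPM in IL-1α and TNF-α A and 24.2 CPM in IL-1β and IL-6 A, while the ES-astrocyte side is lower in 4 of 4 libraries with each stimulus. With TGF-β2 the interaction of *Igfbp2* was −2.55 (SE 1.35) and with C1Q and C5 it was 1.16 (SE 1.25), the latter turning to −2.59 without ES-motor neuron D of that stimulus. The interaction of *Igfbp5* was −1.34 (SE 1.13) with IL-1α and TNF-α and −1.04 (SE 0.97) with C1Q and C5. It was −1.01 (SE 1.07) with IL-1β and IL-6 and −1.36 (SE 1.30) with TGF-β2, beside a control gap of −2.99.

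The interaction counts by edgeR were 0 of 8 members with IL-1α and TNF-α, beside 0.0% of 11161 genes, with 297 genes at an unadjusted p under 0.05 and 0 of either called by DESeq2. With C1Q and C5 they were 0 of 9, beside 0.00881% of 11352 genes, with 421 genes under 0.05 and 0 members and 6 genes by DESeq2. With IL-1β and IL-6 they were 0 of 9, beside 0.0% of 12104 genes, with 552 genes under 0.05 and 0 members and 19 genes by DESeq2, and with TGF-β2 0 of 9, beside 0.0% of 11967 genes, with 442 genes under 0.05 and 0 members and 17 genes by DESeq2.

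The median log2 fold change of the members tested stood beside that of all genes. In ES-astrocytes it was −0.04 with IL-1α and TNF-α, 0.45 with C1Q and C5, −0.25 with IL-1β and IL-6 and 0.01 with TGF-β2, where all genes had −0.08, −0.07, −0.07 and −0.06. In ES-motor neurons it was −0.27, 0.58, −0.79 and 0.49 in the same order, where all genes had 0.03, −0.06, −0.01 and −0.00. Those neuronal medians cover at most 5 members.

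The rest of the pathway was followed through lists of 20 other genes of the IGF system (ligands, carriers, their proteases, further receptors and substrates, *Igf2* mRNA-binding proteins and *H19*), 20 adaptors and receptor regulators, and 35 genes of the phosphoinositide 3-kinase, AKT, FOXO and mTOR branch. In each of the 12 comparisons of stimuli and interactions 0 genes of these lists were called by edgeR, and by DESeq2 0 in all but 2 of them. At an unadjusted p under 0.05 there was 1 gene of the kinase branch in ES-motor neurons with IL-1α and TNF-α, 1 adaptor in ES-motor neurons with C1Q and C5, and 1 gene of the IGF system, *Igfbpl1*, in each of the interactions with IL-1α and TNF-α, IL-1β and IL-6, and TGF-β2, and 0 elsewhere. DESeq2 called *Htra1*, a secreted protease that can cleave binding proteins, in ES-astrocytes with TGF-β2, where its libraries stood at 10.08, 11.6, 0 and 15.9 CPM against a single count in the 4 controls (log2 fold change 7.63, SE 1.92, higher in 3 of 4 libraries; adjusted p = 0.0240 by DESeq2). It was under edgeR's filter there. Among all ES-astrocytes *Htra1* had counts in 7 libraries, and its highest level, 33.6 CPM, lay in a library of another stimulus. DESeq2 also called *Stc1*, whose protein inhibits proteases of the binding proteins, in the interaction with TGF-β2, on counts in 5 of 16 libraries (−18.48, SE 4.59; adjusted p = 0.0459 by DESeq2), where edgeR gave −5.16 (SE 3.68; adjusted p = 1.00). In ES-astrocytes their median log2 fold changes, in the order IL-1α and TNF-α, C1Q and C5, IL-1β and IL-6, TGF-β2, were 0.24, −0.10, 0.46 and 0.21 for the IGF system (7, 5, 4 and 8 tested). They were −0.04, 0.10, −0.27 and −0.27 for the adaptors (16, 17, 17 and 16 tested) and −0.05, 0.01, 0.06 and 0.40 for the kinase branch (23, 27, 25 and 27 tested). In ES-motor neurons they were −0.28, −0.21, −0.51 and −0.24 for the IGF system (2, 3, 3 and 3 tested), −0.37, −0.18, 0.06 and 0.30 for the adaptors (7, 11, 13 and 13 tested) and −0.32, −0.04, −0.08 and 0.25 for the kinase branch (13, 19, 22 and 20 tested).

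Single genes of these lists are given next, *Igf1* chosen after its values were seen. *Igf1* in ES-astrocytes was at 14.2, 42.9, 8.61 and 61.8 CPM with TGF-β2 and at 8.26, 5.83, 0 and 0 CPM in control, groups that do not overlap. Its log2 fold change was 3.24 (SE 1.58, higher in 4 of 4 libraries; edgeR, Benjamini-Hochberg adjusted p = 1.00) and did not pass. *Igfbpl1* had interactions of 7.12 (SE 2.64; edgeR, Benjamini-Hochberg adjusted p = 1.00) with IL-1α and TNF-α, 6.99 (SE 2.75; adjusted p = 0.970) with IL-1β and IL-6 and 6.21 (SE 2.52; adjusted p = 1.00) with TGF-β2. Its 4 control ES-motor neuron libraries were at 0 CPM, so each value is a fold over a group at 0 and its size is loose. The ES-motor neurons stood at 17.04, 0, 3.33 and 0 CPM with IL-1α and TNF-α. With IL-1β and IL-6 they stood at 1.81, 0, 0 and 0 CPM, and with TGF-β2 at 0, 1.43, 4.13 and 0 CPM. Control ES-astrocytes stood at 169, 4.93, 2.46 and 4.02 CPM. In ES-motor neurons *Rps6kb1*, the ribosomal S6 kinase gene, had a log2 fold change of −1.23 (SE 0.53; edgeR, Benjamini-Hochberg adjusted p = 0.990) with IL-1α and TNF-α, and *Ptpn1*, a phosphatase that acts on the insulin receptor, 1.22 (SE 0.58; adjusted p = 0.997) with C1Q and C5. In the contrast of the cell types over the 5 treatments edgeR called 7 of 11 genes of the IGF system tested, all lower in ES-motor neurons, 1 of 18 adaptors (*Ptprf*) and 1 of 30 genes of the kinase branch (*Eif4ebp1*), beside 14.9% of all genes, and DESeq2 called 4, 1 and 1. Of all 1972 genes that edgeR called in that contrast, 1461 were lower in ES-motor neurons. In the control libraries alone edgeR called 0 of 4 genes of the IGF system, 0 of 15 adaptors and 0 of 25 genes of the kinase branch. There 2.24% of all genes were called, and DESeq2 called 0 of each list. These counts describe the contrast that chose the members, and the lists were not tested against each other.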

How the data were processed

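The authors made cDNA from the polyadenylated RNA of about 200 sorted cells per sample (oligo-dT priming, template switching), cut it with Tn5, sequenced it paired-end on a NextSeq and mapped the reads with STAR. The deposited table holds raw counts of reads per Ensembl gene for 40 libraries, per the file headers. The deposited sample sheet gives a plate number for each library. The sources used here do not give the STAR version, counting tool, strand setting or genome build. The members and lists were chosen with earlier results of these data known.

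Symbols and positions came from GENCODE M21 (GRCm38), which named 55141 of 55487 genes, and the other 346 held 0.133% of counts. Library totals were 6557 to 19717324 counts, with a median of 2459460.5, and a count of 0 was read as up to 3 counts. Groups follow the labels for cell type and stimulus. Each stimulus was compared with control within each cell type (4 and 4 libraries), its interaction with cell type was tested on 16, and the cell types were compared in the 8 control libraries and, with a term for treatment, in all 40 as a description. Tests were two-sided and used edgeR 4.0.16 in R 4.3.3 (filterByExpr, TMM, robust glmQLFit and glmQLFTest). Calls needed an adjusted p (Benjamini-Hochberg, over all genes tested) no higher than 0.05 and a log2 fold change beyond 1 in either direction. Standard errors are the absolute log2 fold change over the square root of F. The procedure was tested on simulated data.

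All 10 members were named in the comparisons of stimuli and of cell types. For the interactions, values are given for *Igfbp2*, *Igfbp5* and *Irs1* and for members whose sign turned under an alternative named below. Of a list of other pathway genes up to 4 called, or else those of smallest p, were eligible, and of a marker list the sum, the most abundant gene and genes at 0. For 3 members the 3 genes nearest in pattern were named, over libraries of at least 20% of the median total. *Igf1* by library, *Htra1* and *Stc1* were chosen after their values were seen. Pathway lists held other genes of the IGF system (ligands, carriers, proteases, receptors, substrates, *Igf2* mRNA-binding proteins and *H19*), adaptors and receptor regulators, and the phosphoinositide 3-kinase branch. Marker lists covered motor neurons, neurons, astrocytes, neural progenitors, fibroblasts or mesenchyme, endothelium, oligodendrocyte lineage, microglia, pluripotent cells and cytokine response.

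Alternatives were DESeq2 1.42.0 (alpha 0.1), RLE normalization, no filter on low counts, a replicate block, leaving out libraries under 20% of the median total, and leaving out each library. Chosen after seeing the data, *Irs1* was also fitted less and plus the counts of *Gm9747*. Tables were made in Python 3.11.15 (numpy 2.4.6, pandas 2.3.3, scipy 1.17.1) and plots with matplotlib 3.10.9; edgeR loaded limma 3.58.1.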

Additional observations from a re-analysis of the deposited data

Results flagged for a closer look

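In 79 groups of 4 libraries, counting the level of each member and the total count, 1 library stood far from the other 3 in 8 cases. The rule flags about 1 in 20 groups by chance if the values are normally distributed. It was applied to CPM and totals as they are, which need not be so distributed, so 8 of 79 is not read as an excess. A further 31 groups, with counts in fewer than 3 libraries, were not examined. *Igfbp2* was at 231 CPM in control ES-astrocytes A, against 37.6 to 54.1 CPM in the other 3. *Igfbp2* was at 51.1 CPM in ES-motor neurons with IL-1α and TNF-α A, against 0 to 4.49 CPM. *Igfbp5* was at 31.8 CPM in ES-motor neurons with TGF-β2 A, against 0 to 2.27 CPM. *Insr* was at 13.3 CPM in control ES-astrocytes C, against 0 to 0.127 CPM. *Insr* was at 47.9 CPM in ES-astrocytes with IL-1β and IL-6 C, against 0 to 1.87 CPM. The total of ES-astrocytes with IL-1α and TNF-α A was 14831839 counts, against 2019196 to 2535419. The total of control ES-motor neurons B was 19717324 counts, against 240859 to 2383502. The total of ES-motor neurons with TGF-β2 B was 12606121 counts, against 283205 to 1695346. The cause was not tested for any of them.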

How the results depend on the processing

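In the 12 comparisons of stimuli and interactions the count of members called was 0 in edgeR's fit and in all 182 alternative counts, those by DESeq2 included. Of 1398 alternative log2 fold changes of members there, 137 had the opposite sign, 12 of them by more than 1 SE of the value reported, and 0 were called. Of these, 11 came from leaving out 1 library, named below with the lowest and highest value over the libraries left out. In ES-astrocytes *Igfbp2* had −0.43 with C1Q and C5 (−0.66 to 0.35, the latter without control A) and −0.10 with TGF-β2 (−0.97 to 0.65, the latter without control A). In ES-motor neurons *Igfbp5* had 0.07 with C1Q and C5 (−1.50 without C to 0.51), *Igf1r* 0.14 with IL-1β and IL-6 (−0.52 without C to 0.52) and *Igf2r* 0.55 with TGF-β2 (−0.45 without D to 1.06). In the interactions with IL-1α and TNF-α *Igfbp3* had 5.09 (−0.21 without ES-motor neuron C to 5.75) and *Igfbp4* 0.52 (−6.02 without ES-motor neuron A to 1.48). With C1Q and C5 *Igfbp2* had 1.16 (−2.59 without ES-motor neuron D to 2.08) and *Irs2* −0.50 (−7.91 to 2.40, the latter without ES-motor neuron control D). With IL-1β and IL-6 *Igfbp4* had 0.59 (−6.19 without ES-motor neuron A to 1.45) and *Insr* −0.79 (−6.06 to 3.25, the latter without ES-astrocyte C), while *Irs1* went from 0.14 to −0.89 less the *Gm9747* counts. The cause was not tested.

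The count of 3 members called between the control cell types was 4 by DESeq2, 2 without the filter, 0 with the replicate block and 1 without the libraries of low total. When each library was left out it was 0 to 3, with 0 without ES-motor neuron control A or D and 1 without ES-astrocyte control B or ES-motor neuron control B or C. The letters were not used as pairs in the main fits, since in none of the 9 comparisons examined did every same-letter pair correlate above 0.1. That rule cannot show that the libraries are independent. Both cell types were sorted after co-culture, so their libraries of 1 letter and stimulus may share a culture. Standard errors of the contrast of cell types and of the interactions leave this out, and the replicate block is given as a bound. The nearest to that rule was TGF-β2 in ES-motor neurons, with correlations of 0.0945, 0.183, 0.0494 and 0.121 and 3 of 4 libraries closest to their own letter. The highest single correlation, 0.427, was that of letter A in ES-astrocytes with TGF-β2, where B to D gave −0.0417, 0.0324 and 0.0889. Those A libraries also held the highest *Igfbp2* of their groups, 231 CPM in control and 209 CPM with TGF-β2. Between the control cell types 228 genes were called in all, 763 by DESeq2, 41 with the replicate block, 81 without the libraries of low total and 72 to 401 when each library was left out. In ES-astrocytes DESeq2 called 21, 37, 59 and 58 genes with IL-1α and TNF-α, C1Q and C5, IL-1β and IL-6, and TGF-β2 where edgeR called 0, and 2 genes were called with IL-1α and TNF-α without the filter. In ES-motor neurons DESeq2 called 1 gene with IL-1α and TNF-α and 1 with IL-1β and IL-6, and 1 was called with IL-1α and TNF-α without the filter, each against 0. The 1 gene with TGF-β2 there became 19 by DESeq2, 5 without the filter, 4 with the replicate block, 0 without the libraries of low total and 0 to 2 over single libraries left out, as did the 0 with C1Q and C5. The 1 gene of the interaction with C1Q and C5 became 6 by DESeq2, 3 without the filter, 0 without the libraries of low total and 1 to 2 over single libraries. The 0 of the interactions with IL-1β and IL-6 and with TGF-β2 became 19 and 17 by DESeq2, and single libraries left out gave 0 to 2 with IL-1α and TNF-α or with IL-1β and IL-6 and 0 to 4 with TGF-β2. The cause was not tested.

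Leaving out the libraries of low total was not possible in ES-motor neurons with IL-1α and TNF-α or its interaction, where all 4 are low, and changes nothing within ES-astrocytes, which have none. *Irs1* less the *Gm9747* counts gave no value in ES-motor neurons with IL-1α and TNF-α, where it fell under the filter. The limit on a count of 0, up to 458 CPM, is widest in the ES-motor neuron libraries of low total.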
